A study of Mus musculus with 2 samples.

Results

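Forkhead (Fox) transcription factors were examined in 2 murine rhabdoid tumors profiled by bulk RNA sequencing. Members were the protein-coding rows of the count table whose symbol is Fox followed by a letter from a to s, a number and at most 1 further letter, which gave 44 of 55416 rows. Membership rested on the name alone and used no measured value. The tumors arose in Dppa3-cre::Smarcb1 mice, in which an IRES-Cre knock-in at the Dppa3 locus is active in primordial germ cells. The study's methods describe the tumor-bearing animals as Smarcb1 Fl/+ heterozygotes on a C57BL/6 line, while the design text of the series names a Smarcb1 fl/fl strain as the parent. Tumor 1 was labelled intracranial (trigeminal nerve) and tumor 2 extracranial (facial, maxillar), and both carried the classification MYC. Neither the age of the animals nor an unaffected control tissue was part of the labels. Each location had 1 library from 1 tumor, so location, animal and individual tumor cannot be told apart, and every comparison is of 2 libraries without replicates and without a test.

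Forkhead proteins share a winged-helix DNA-binding domain whose recognition helix lies in the major groove of DNA. Members divide into subfamilies by letter and cover very different tasks: FoxA, FoxE and FoxN1 proteins specify epithelia, FoxC, FoxD, FoxF, FoxL1 and FoxS1 proteins act in mesenchyme and neural crest derivatives, and FoxO, FoxK and FoxP proteins are found in many cell types. FoxO proteins are retained outside the nucleus after phosphorylation by the kinase Akt, FoxM1 drives genes of mitosis, and FoxP3 defines regulatory T cells.

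The library labelled intracranial held 34545846 counts and the library labelled extracranial 26915696 counts, and 29670 and 27252 genes had at least 1 count. Smarcb1, the targeted gene, had 365 and 530 counts, or 10.5 and 19.8 counts per 1000000 counts of the scaled library (CPM), so transcripts of the gene were present in both bulk samples. The libraries stood apart in epithelial RNA. The 14 stratified keratinocyte markers summed to 21161 CPM in the intracranial and 6.61 CPM in the extracranial library, and the 14 simple and glandular epithelium markers to 2783 and 2.58 CPM. In bulk samples, fewer cells of a type and less RNA per cell cannot be told apart.

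Several members that the results turn on are shown first by the stretch of their coding sequence that encodes the DNA-contacting helix, because this is the part the family shares. The stretch is 36 bases (12 codons) long and was found in a transcript of 41 of the 44 members, all but Foxh1, Foxr1 and Foxr2. The sequences are from GENCODE release 21 transcripts and are written 5′ to 3′. Capitals mark each base that differs from the commonest base of the 41 members at that position.
Foxe1: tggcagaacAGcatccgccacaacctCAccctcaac
Foxq1: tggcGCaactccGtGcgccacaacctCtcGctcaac
Foxn1: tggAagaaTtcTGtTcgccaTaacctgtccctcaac
Foxs1: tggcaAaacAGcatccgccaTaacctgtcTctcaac
Foxl1: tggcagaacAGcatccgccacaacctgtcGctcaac
Foxc1: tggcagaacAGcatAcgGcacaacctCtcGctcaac
Foxc2: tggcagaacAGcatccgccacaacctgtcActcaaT
Foxb2: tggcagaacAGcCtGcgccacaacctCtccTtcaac
The members differed from the commonest base at a median of 5 of the 36 positions, with a range of 0 to 14. Foxp1 and Foxp2 were the most divergent, and Foxl1, Foxd3 and Foxd4 were identical over this stretch. Over whole transcripts, the longest run of identical bases between any pair of members was 68 bases, in Foxd3 and Foxd4, followed by 53 bases in Foxc1 and Foxc2. Both runs are shorter than the 72-cycle reads of the study's methods.

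Of the 44 members, 33 had more than 3 counts in at least 1 library and 28 had more than 3 counts in both. A count of 3 corresponds to 0.0863 CPM in the intracranial and 0.112 CPM in the extracranial library and was taken as the floor. The floor was passed by 32 members in the intracranial and 29 in the extracranial library. The other 11 members were at or under the floor in both, and 5 of them (Foxb1, Foxi1, Foxi2, Foxl2 and Foxn4) had 0 counts throughout. All members together took 584.6 CPM (95% interval 576.6 to 592.7) in the intracranial and 605.4 CPM (596.1 to 614.8) in the extracranial library. Intervals here and below are exact Clopper-Pearson intervals that cover counting error only (the reads carry no molecular identifiers and can stem from the same molecule). The summed level of the family was thus nearly equal in both tumors. Its make-up was not. The 14 broadly expressed members (FoxJ2, FoxJ3, FoxK, FoxM1, FoxN2, FoxN3, FoxO and FoxP1, FoxP2 and FoxP4) held 87.4% of the forkhead counts in the intracranial and 80.1% in the extracranial library.

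Genes with 10 or more counts over both libraries were compared, and a call required that every value in the 95% interval of the ratio exceed a 4-fold difference. Among 33 members with that many counts, 7 were called, or 21.2%, beside 7.19% of all 21977 genes with that many counts. Among the 15734 protein-coding genes, the biotype of the members, the share was 8.94%. Of these genes 6.83% were called higher in the intracranial and 2.11% in the extracranial library. Higher in the intracranial library were 5 members (15.2%, beside 5.41% of all genes), namely Foxa1, Foxe1, Foxn1, Foxp2 and Foxq1. Higher in the extracranial library were 2 members (6.06%, beside 1.78% of all genes), Foxl1 and Foxs1. The median log2 ratio, extracranial over intracranial, was -0.18 over the 33 members and -0.04 over all genes. Within 2-fold lay 17 members (51.5%) beside 72.4% of all genes, so the median was near that of all genes while the members spread more widely.

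**Figure D1:**
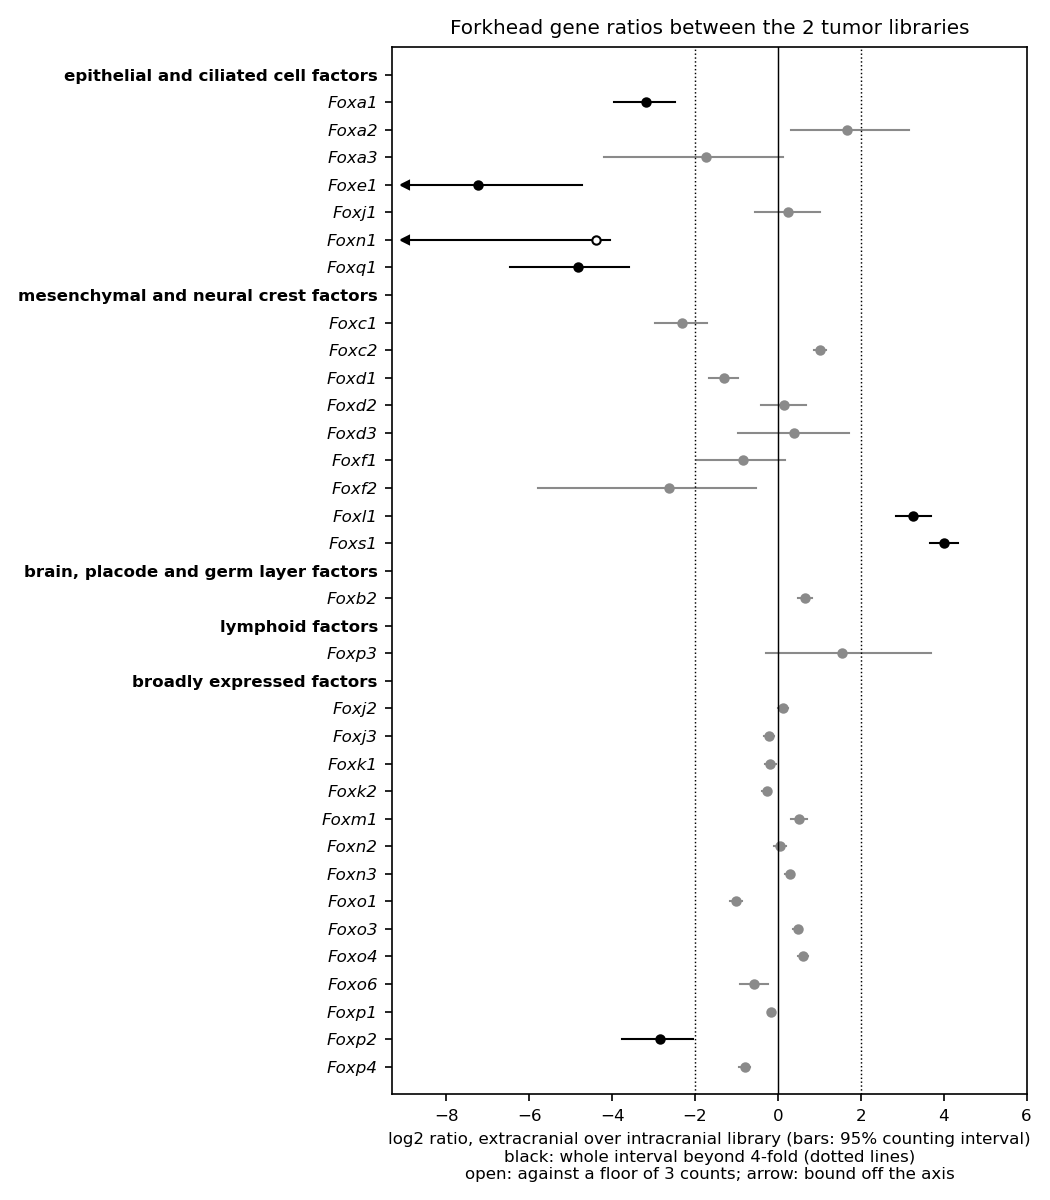
The plot shows the log2 ratio, extracranial over intracranial, of 32 forkhead genes above 3 counts in either library, grouped by role, with 95% counting intervals. Black points are the 7 genes whose whole interval lies beyond 4-fold (dotted lines at -2 and 2), with 5 on the intracranial and 2 on the extracranial side. The broadly expressed genes other than Foxp2 lie between -1.02 and 0.60.

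The members known from epithelia held most of the calls. Of 10 such members, 7 had 10 or more counts over both libraries, 4 were called higher in the intracranial library and 0 in the extracranial library, with a median log2 ratio of -3.18. Their summed level was 20.8 CPM in the intracranial and 2.77 CPM in the extracranial library. Foxe1 (ENSMUSG00000070990), a factor of thyroid, palate and hair follicle development, had 194 counts in the intracranial library and 1 count in the extracranial library. This is a ratio of 149-fold with an interval from 26.5 to 5931, so its size is poorly fixed although the direction is clear in these libraries. Foxn1 (ENSMUSG00000002057), which thymic epithelium and differentiating hair and skin keratinocytes require, had 81 counts and 0 counts. With the extracranial count set to the floor of 3, the ratio was 20.8-fold toward the intracranial library. The interval from the counts themselves began at 16.5-fold. Foxq1 (ENSMUSG00000038415), known for its part in hair shaft formation and in mucous cells of the stomach, had 185 and 5 counts, a 28.5-fold ratio (11.99 to 88.8). Foxa1 (ENSMUSG00000035451), a pioneer factor of glandular epithelia, had 212 and 18 counts and was 9.07-fold higher in the intracranial library (5.60 to 15.6).

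The related endoderm factors Foxa2 and Foxa3 were not called. Foxa2, which also acts in the floor plate and node, had 7 counts in the intracranial and 17 in the extracranial library, a log2 ratio of 1.66 (0.31 to 3.17) in the opposite direction. Foxa3, an endodermal member, had 13 and 3 counts, and the interval of its log2 ratio (-4.19 to 0.12) spanned 0. Foxa1 made up 91.4% of the FoxA counts in the intracranial library (87.0 to 94.7) and 47.4% in the extracranial library (31.0 to 64.2). Foxj1, the master regulator of motile cilia, was detected in both libraries at 32 and 29 counts, and its log2 ratio of 0.23 (-0.54 to 1.01) was not distinguishable from equality. Among 27 genes of the multiciliated cell program, 15 had enough counts, 1 was called higher in the intracranial library and 0 in the other, and the median log2 ratio was -1.21. The called gene was Trp73 (52 and 0 counts), a p53 family member that also occurs in other epithelia, whereas Mcidas, which starts the program, had 15 and 7 counts. Foxi1, Foxi2 and Foxi3, factors of ionocytes, ectoderm and placodes, had at most 1 count. Of 14 ionocyte genes, 8 had enough counts and 4 (Tfcp2l1, Atp6v0a4, Atp6v1c2 and Slc26a4) were called higher in the intracranial library, with a median log2 ratio of -2.29 over the list. These 4 genes therefore differed between the libraries while Foxi1 itself had 0 counts in both.

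Epithelial markers moved in the same direction as these members. Of the 14 simple and glandular epithelium markers, 13 were called higher in the intracranial library and 0 in the other, and 4 (Grhl2, Cldn4, Agr2 and Muc5b) had 0 counts in the extracranial library. Of the 14 keratinocyte markers, 12 were called higher in the intracranial library and 0 in the other, and Krt5, Krt1, Dsg3, Trp63 and Ivl had 0 counts in the extracranial library, whereas Krt5 had 25883 counts in the intracranial library. Their part in the ratios of Foxa1, Foxe1, Foxn1 and Foxq1 was not tested. Thymic epithelium markers, which are relevant for Foxn1, did not share 1 direction. Psmb11 had 1 count in each library, Tbata 0, Prss16 35 and 10, and Ccl25 298 and 190 counts, while 1 of the 7 markers (Cd83, also a gene of dendritic cells) was called higher in the extracranial library and 0 in the other, the list summing to 31.1 CPM in the intracranial and 128 CPM in the extracranial library, of which Cd83 gave 17.0 and 106 CPM. Of 6 thyroid markers, relevant for Foxe1, 1 (Slc5a5, the iodide transporter, 245 and 14 counts) was called higher in the intracranial library and 0 in the other. Nkx2-1 and Pax8 had 0 counts in both, and the list summed to 7.45 CPM in the intracranial and 1.16 CPM in the extracranial library.

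The promoter of Foxa1 is printed because it was the only one of the forkhead promoters searched that held TGTTTAC, the core of the canonical forkhead motif. The RefSeq table (GRCm38.p6) held 33 promoters of 28 of the 44 members. The 250 bases before each start were searched for TGTTTAC and TGTTTGC on both strands, and a position can match at most 1 of them on a given strand. TGTTTAC occurred in 1 forkhead promoter (3.03%), beside 2.60% of 20120 protein-coding promoters and 3.17% of all 32851. The match in the Foxa1 promoter, on the minus strand at chr12:57546112-57546361, is in capitals and reads as the reverse complement.
Foxa1 promoter: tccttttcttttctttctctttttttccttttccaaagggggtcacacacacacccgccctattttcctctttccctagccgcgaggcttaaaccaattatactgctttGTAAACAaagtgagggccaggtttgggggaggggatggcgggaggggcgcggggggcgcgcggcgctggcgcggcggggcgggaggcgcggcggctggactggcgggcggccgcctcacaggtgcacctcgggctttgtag
TGTTTGC occurred in 2 forkhead promoters (6.06%), those of Foxj3 and Foxp1, beside 4.02% of protein-coding promoters. The forkhead promoters had a median GC content of 62% beside 56% and a median observed-over-expected CpG ratio of 0.70 beside 0.55 in protein-coding promoters. A match describes letters in this window only.

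The mesenchymal and neural crest members split between the tumors. Of 10 such members, 9 had enough counts, 2 were called higher in the extracranial library and 0 in the other, and their summed level was 38.0 CPM in the intracranial and 93.3 CPM in the extracranial library. Foxs1 (ENSMUSG00000074676), known from pericytes and from developing peripheral sensory neurons, had 78 counts in the intracranial and 958 counts in the extracranial library. It was 15.9-fold higher in the extracranial tumor (12.7 to 20.4). Foxl1 (ENSMUSG00000097084), a factor of the mesenchyme below the gut epithelium, had 55 and 404 counts, a 9.54-fold ratio in the same direction (7.18 to 12.9). Foxc2 (ENSMUSG00000046714), which acts in paraxial mesenchyme and lymphatic vessels, had 599 and 936 counts and a log2 ratio of 1.02 (0.87 to 1.17).

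Its paralog Foxc1 (ENSMUSG00000050295), a factor of the meninges and the anterior eye, went the opposite way with 168 and 26 counts. Its log2 ratio was -2.32 with an interval from -2.97 to -1.71, which lies beyond 2-fold but not wholly beyond 4-fold. Beyond 2-fold there were 6 members higher in the intracranial library and 3 higher in the extracranial library, or 18.2% and 9.09%, beside 9.77% and 5.86% of all genes. Foxc1 made up 21.9% of the FoxC counts in the intracranial library (19.0 to 25.0) and 2.703% in the extracranial library (1.77 to 3.94). Foxd1, a marker of stromal progenitors, had 299 and 93 counts and a log2 ratio of -1.31 (-1.66 to -0.97). Foxd2, a mesenchymal member, had 65 and 55 counts, and Foxd3, an early neural crest and pluripotency factor, had 11 in each. The intervals of both spanned equality. Foxf1 and Foxf2, mesenchymal targets of Hedgehog signalling, had 28 and 12 and 16 and 2 counts, with log2 ratios of -0.85 (-1.96 to 0.18) and -2.62 (-5.79 to -0.53). Foxl2, the factor of ovarian granulosa cells, had 0 counts in both. Of 13 gonadal somatic genes, 7 had enough counts, 1 (Wnt4) was called higher in the intracranial library and 0 in the other, and the median log2 ratio was -0.89.

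**Figure D2:**
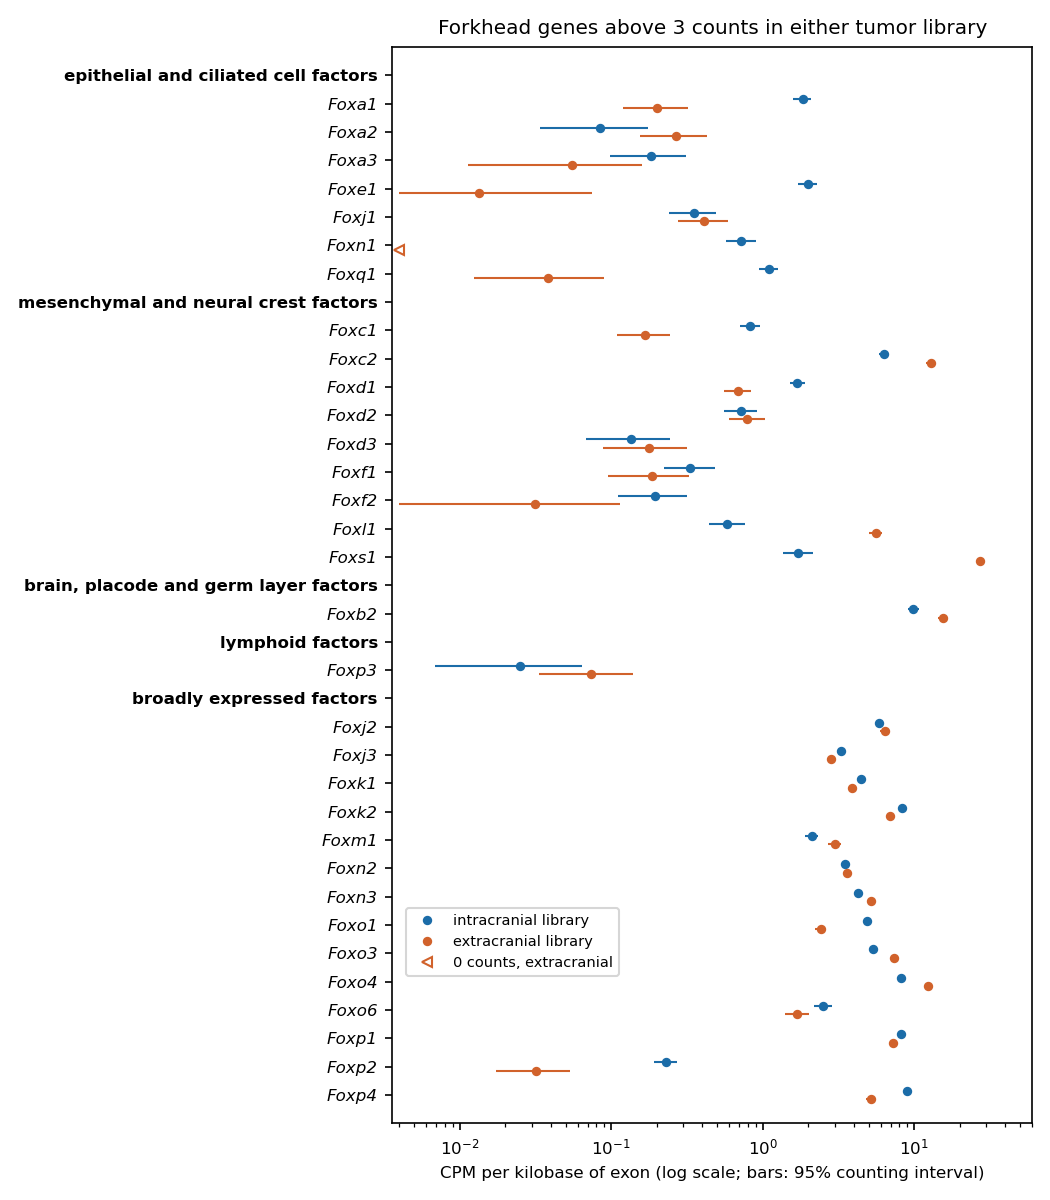
The plot shows CPM per kilobase of exon (log scale) of 32 forkhead genes above 3 counts in either library, with 95% counting intervals (cut at the left edge), in the intracranial (blue) and extracranial (orange) library. Foxs1 has the highest level of the family in the extracranial library at 27.3, Foxn1 has 0 counts there (open triangle), and the broadly expressed genes other than Foxp2 lie between 1.69 and 12.4 in both libraries.

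Genes upstream of these members, and markers of the cells that carry them, were read beside them. Of 14 Hedgehog pathway genes, 13 had enough counts, 1 (the co-receptor Cdon, 682 and 101 counts) was called higher in the intracranial library and 0 in the other, and the median log2 ratio was -0.92. Gli1, a transcriptional target and effector of the pathway, had 871 and 178 counts (log2 ratio -1.91), and the receptor Ptch1 had 679 and 241 (-1.12). Foxf2 thus lay on the same side as Gli1 and Foxl1 on the other, while the interval of Foxf1 spanned equality. Of 22 transcription factors of cranial mesenchyme, 19 had enough counts, 1 (Tbx15, 99 and 862 counts, log2 ratio 3.499) was called higher in the extracranial library, and 5 (Eya1, Lmx1b, Meox2, Six2 and Tfap2b) were called higher in the intracranial library, with a median of -0.95.

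Pericyte and smooth muscle markers were higher in the extracranial library in part. Of 9 markers, 2 (Kcnj8, 68 and 312 counts, and Abcc9, 113 and 437 counts) were called higher in the extracranial library and 0 in the other, none was at 0, the median log2 ratio was 1.67, and the list summed to 460.9 CPM in the intracranial and 644.9 CPM in the extracranial library. Rgs5, a further pericyte gene, had 969 and 2875 counts (1.95), while Notch3 lay at -2.15. The 12 endothelial markers all had a ratio above 1 toward the extracranial library with a median of 1.12, 0 were called, and the list summed to 232.5 and 427.1 CPM. Of 10 Schwann cell and neural crest markers, 4 were called higher in the intracranial and 1 (Egr2) in the extracranial library, and Sox10 had 0 counts in the extracranial library. Their median log2 ratio was -2.20, with 9 of the 10 on the intracranial side, and the list summed to 253.3 and 242.2 CPM, of which Pmp22 gave 178 and 135 CPM. The log2 ratio of Foxs1 was 3.995, and those of the 9 pericyte markers ran from -2.15 to 2.57. The part of these cells in the ratios of Foxs1, Foxl1, Foxc1 and Foxc2 was not tested.

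Several of these members lie in 2 genomic clusters, which are described in their genomic order. On chromosome 13 the protein-coding order is A530084C06Rik, Foxq1, Foxf2, Foxc1 and Gmds, a gene of fucose metabolism. A530084C06Rik overlaps Foxq1 on the opposite strand and had 0 counts in both libraries. Counts were 185 and 5 for Foxq1, 16 and 2 for Foxf2 and 168 and 26 for Foxc1, so all 3 members were higher in the intracranial library. Gmds had 464 and 217 counts and a log2 ratio of -0.72 (-0.96 to -0.48). On chromosome 8 the order is Irf8, Foxf1, Mthfsd, Foxc2 and Foxl1. Irf8, a myeloid transcription factor, had 1497 and 4120 counts (log2 ratio 1.84), Foxf1 28 and 12, Mthfsd 947 and 672 (-0.12), Foxc2 599 and 936 and Foxl1 55 and 404. Foxc2 and Foxl1, adjacent in this order, were therefore both higher in the extracranial library, while the interval of Foxf1 spanned equality. Fendrr, the long non-coding RNA beside Foxf1, had 6 and 0 counts.

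**Figure D3:**
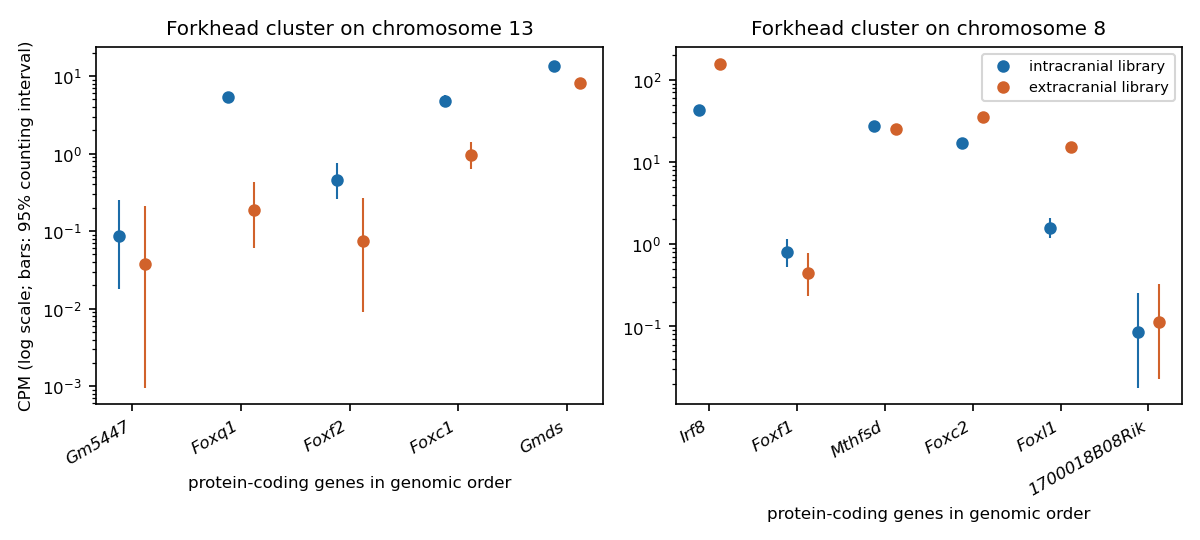
The plots show CPM (log scale) with 95% counting intervals of the protein-coding genes around the forkhead clusters of chromosomes 13 and 8, in genomic order, for the intracranial (blue) and extracranial (orange) library. A530084C06Rik, which overlaps Foxq1 and had 0 counts in both libraries, is not drawn. Foxq1, Foxf2 and Foxc1 all lie lower in the extracranial library, whereas Foxc2 and Foxl1 lie higher there, and the outermost genes Gm5447 and 1700018B08Rik have at most 3 counts.

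Among the members known from brain, placodes and germ layers, Foxb2 was detected well above the floor in both libraries. Foxb2 (ENSMUSG00000056829), a gene of the developing brain and spinal cord, had 511 and 616 counts and a log2 ratio of 0.65 (0.47 to 0.82). Per kilobase of exon it ranked 1 of the family in the intracranial library at 9.89 CPM per kilobase and 2 in the extracranial library at 15.5 CPM per kilobase. Per kilobase of coding length it ranked 13 and 10. Its paralog Foxb1 had 0 counts in both.

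Several other members of this group were at or under the floor in both libraries. Foxd4, Foxe3 (a lens factor), Foxh1 (the DNA-binding partner of Smads in Nodal signalling), Foxn4 (a retinal and spinal interneuron factor), Foxr1 and Foxr2 had 2, 0, 1, 0, 2 and 0 counts in the intracranial and 0, 1, 0, 0, 1 and 2 counts in the extracranial library. Of 17 genes of Nodal signalling, 13 had enough counts, 2 were called higher in the extracranial and 1 in the intracranial library, and the median log2 ratio was 0.64. Lefty1 (55 and 479 counts) and Lefty2 (7 and 53 counts), secreted inhibitors and targets of Nodal, were higher in the extracranial library by 3.499 and 3.30 on the log2 scale. Foxh1 and Nodal itself were at or under the floor in both libraries while both Lefty genes differed. Of 9 lens markers, 2 had enough counts, 1 (Cryab, also a gene of muscle and stress) was called higher in the extracranial library and 0 in the other, with sums of 25.1 and 179 CPM, and Cryba1, Crybb2, Pitx3 and Lim2 had 0 counts in both.

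Foxp3, the lineage factor of regulatory T cells, had 4 and 9 counts, and its log2 ratio of 1.55 (-0.29 to 3.70) spanned equality. Of 12 regulatory T cell markers, 1 (Il10, 5 and 52 counts) was called higher in the extracranial and 1 (Il2ra, 291 and 24 counts) in the intracranial library, with a median of -0.74. None was at 0, and the list summed to 61.0 CPM in the intracranial and 32.7 CPM in the extracranial library. Of 9 T cell markers, 2 (Cd4, 20 and 172 counts, and Cd8a, 17 and 222 counts) were called higher in the extracranial library and 0 in the other, with sums of 18.0 and 40.5 CPM. A difference in Foxp3 was not detectable at this depth. The gene also shares exon bases with 4 other annotated genes, among them the long non-coding RNA Flicr (18.6% of the Foxp3 exon bases, 12 and 17 counts), so its counts are uncertain.

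The broadly expressed members carried most of the forkhead counts, and most of them lay within 2-fold. All 14 had enough counts, and 12 (85.7%) lay within 2-fold, beside 72.4% of all genes. Only 1 (7.14%) was called, a share near the 7.19% of all genes. The group summed to 510.8 CPM in the intracranial and 484.9 CPM in the extracranial library. The called member was Foxp2 (ENSMUSG00000029563), a factor of brain circuits and of distal lung epithelium, with 131 and 14 counts and a 7.21-fold higher level in the intracranial library (4.14 to 13.5). Its subfamily relatives lay closer to equality. Foxp1, a factor of lymphocytes, heart and lung, had 3915 and 2668 counts and a log2 ratio of -0.18 (-0.25 to -0.11). Foxp4, an airway and gut epithelial member, had 1542 and 680 counts and a log2 ratio of -0.80 (-0.94 to -0.67).

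Within the FoxO subfamily the sum stayed level while the members shifted. FoxO counts summed to 4096 and 3330, a log2 ratio of 0.08 (0.01 to 0.14). Foxo1 (ENSMUSG00000044167), the member best known from insulin signalling, had 1479 and 562 counts and a log2 ratio of -1.02 (-1.16 to -0.88). Foxo3 (ENSMUSG00000048756), known for stress resistance and follicle dormancy, had 1400 and 1498 counts (0.47, from 0.37 to 0.58), and Foxo4 (ENSMUSG00000042903) had 989 and 1152 counts (0.60, from 0.47 to 0.72). Foxo6, a brain-enriched member, had 228 and 118 counts (-0.57, from -0.91 to -0.25). Foxo1 thus took 36.1% of FoxO counts in the intracranial library (34.6 to 37.6) and 16.9% in the extracranial library (15.6 to 18.2). Foxo3 took 34.2% and 45.0%, and Foxo4 24.1% and 34.6%. Per kilobase of exon, Foxo3 lay above Foxo1 in the extracranial library, at 7.39 and 2.42 CPM per kilobase. In the intracranial library they had 5.32 and 4.91 CPM per kilobase, and their intervals overlapped. Per kilobase of coding length, Foxo3 ranked 6 and Foxo1 4 in the intracranial library. In the extracranial library they ranked 5 and 15 by this length.

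**Figure D4:**
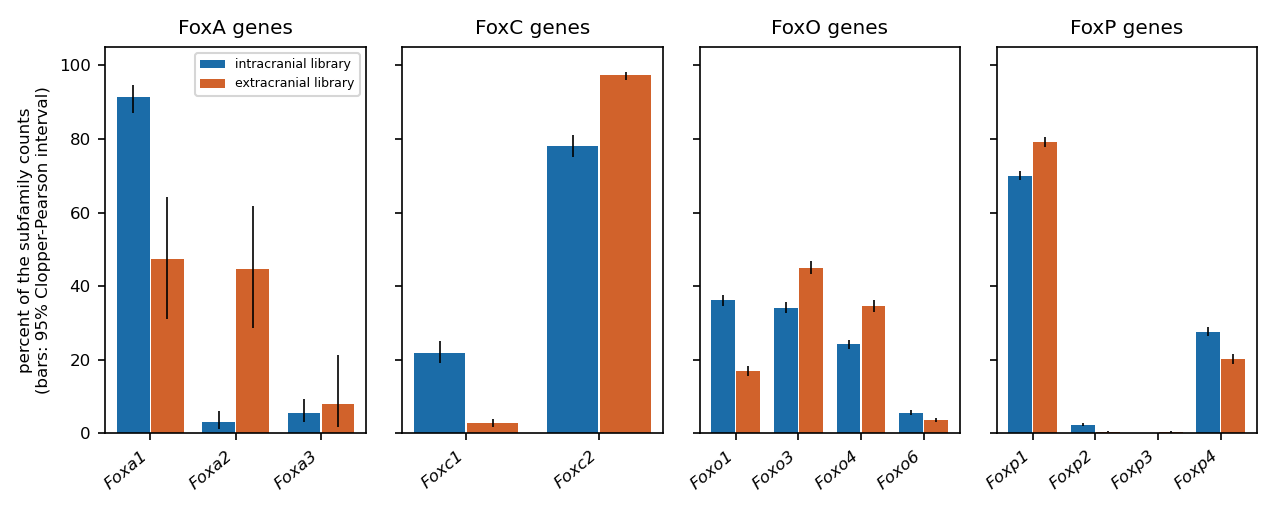
The bars show the percent of each subfamily's counts that every member holds in the intracranial (blue) and extracranial (orange) library, with 95% Clopper-Pearson intervals, for the FoxA, FoxC, FoxO and FoxP genes. The share of Foxo1 is 36.1% and 16.9%, that of Foxc1 21.9% and 2.703%, and that of Foxa1 91.4% and 47.4%.

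Regulators and targets of these proteins were read from lists of pathway genes. Of 20 regulators of FoxO proteins, 0 were called and the median log2 ratio was -0.015, which became 0.023 with upper quartile scaling. The strongest difference among them was in Sgk1, a kinase that phosphorylates FoxO3, with 8218 and 1599 counts and a log2 ratio of -1.98. Of 28 FoxO targets, 24 had enough counts, 1 (Fasl, a death ligand, with 1 and 24 counts) was called higher in the extracranial library and 0 in the other, and the median was 0.16. Of the 25 targets above the floor in either library, 16 lay on the extracranial side and 9 on the intracranial side. Of all 24490 genes above the floor in either library, 11210 lay on the extracranial side. Targets on the intracranial side included Sod2 (3188 and 1258 counts, log2 ratio -0.96), Pdk4 (92 and 35, -1.02) and Pik3ip1 (1260 and 594, -0.71). Further targets on the extracranial side included Bcl2l11 (669 and 1236 counts, log2 ratio 1.26), which promotes apoptosis, Sesn1 (2077 and 3776 counts, log2 ratio 1.24), a stress-induced inhibitor of growth signalling, Klf2 (1007 and 1833, 1.24) and the death ligand Tnfsf10 (90 and 210, 1.60).

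Foxm1, the mitotic member, had 422 and 460 counts and a log2 ratio of 0.50 (0.31 to 0.70). Its 21 target genes had a median log2 ratio of 0.52, and 20 of them lay on the extracranial side, beside 11210 of 24490 genes above the floor in either library. Mki67, a proliferation marker, had 3149 and 3527 counts (0.54), Top2a 2560 and 2695 (0.45) and Ccnb1, the mitotic cyclin, 732 and 720 (0.35). The only target called was Cdc25b, a phosphatase that activates mitotic kinases, with 2905 and 438 counts and a log2 ratio of -2.35 in the other direction. Targets and Foxm1 alike differed by less than 2-fold apart from this gene.

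The FoxK genes, Foxj2, Foxj3, Foxn2 and Foxn3 lay within 2-fold. Foxk1 and Foxk2, repressors that act in metabolism and autophagy, had 1174 and 794 and 1531 and 976 counts, with log2 ratios of -0.19 and -0.27. Foxj2 and Foxj3 had 1089 and 913 and 1258 and 836 counts (0.12 and -0.21). Foxn2 had 893 and 715 counts (0.06) and Foxn3, known as a checkpoint suppressor, 1697 and 1589 (0.28). The intervals of Foxj2 and Foxn2 spanned equality, and those of the others lay on 1 side within 1.5-fold.

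The order of levels among the members was taken per length, as CPM per kilobase of exon, for the genes above the floor. Shares of counts given above compare the same member or group between the libraries. In the intracranial library the highest levels were 9.89 for Foxb2, 9.01 for Foxp4, 8.38 for Foxk2, 8.19 for Foxp1 and 8.17 for Foxo4. These 5 followed each other with overlapping intervals, and a gap followed to Foxc2 at 6.33 CPM per kilobase. In the extracranial library Foxs1 led with 27.3 CPM per kilobase, ahead of Foxb2 at 15.5, Foxc2 at 12.8, Foxo4 at 12.4 and Foxo3 at 7.39. Foxs1 had ranked 18 in the intracranial library, and Foxl1 moved from rank 24 to rank 9. The median over protein-coding genes above the floor was 3.47 and 3.72 CPM per kilobase, so Foxs1 lay above it in the extracranial and below it in the intracranial library. Intervals overlapped in 27 of the 31 neighbouring pairs of the intracranial order and in 20 of the 28 of the extracranial order. Most neighbours were therefore not set apart by separate intervals, although overlap does not show that 2 levels are equal. With the coding length in place of the exon length, Foxp1 and Foxn3 ranked 1 and 2 in both libraries and Foxs1 ranked 3 in the extracranial library, so the leading place of Foxs1 and Foxb2 depends on the length used.

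**Figure D5:**
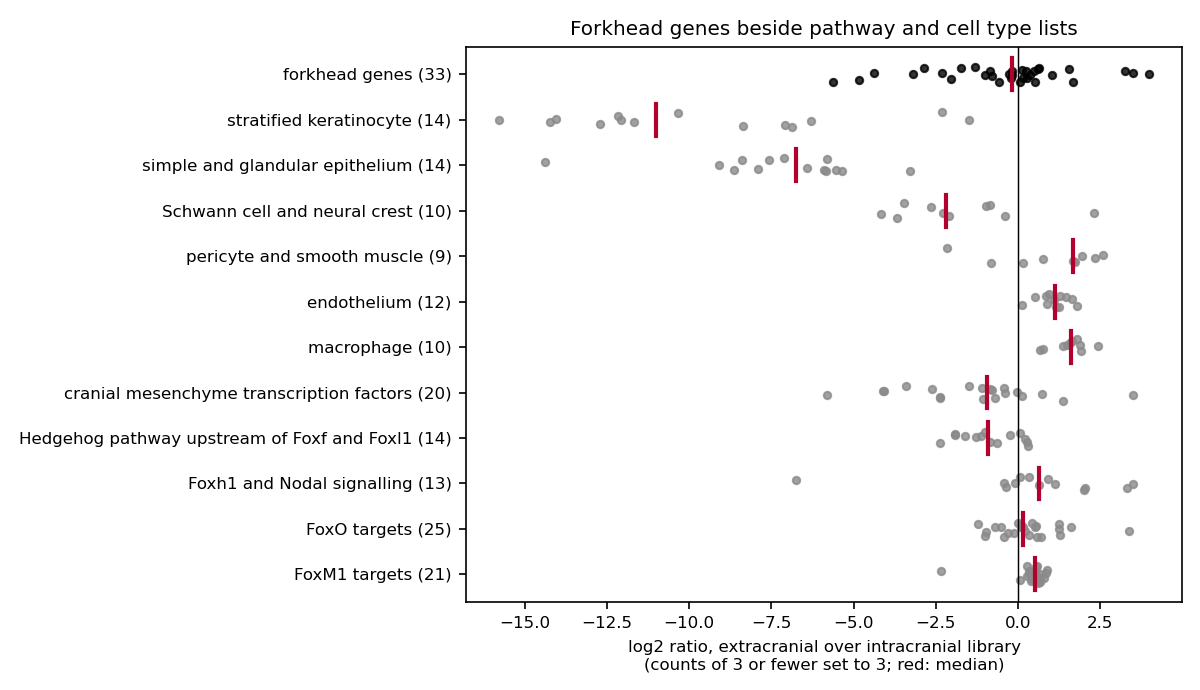
Each point is the log2 ratio, extracranial over intracranial (counts of 3 or fewer set to 3), of 1 gene of the forkhead family (black) or of a pathway or cell type list (grey), and the red bar is the median. The forkhead genes centre at -0.18 with points from -5.64 to 3.995, both epithelial lists lie wholly on the intracranial side, and the FoxM1 targets other than Cdc25b form a narrow group just above 0.

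Other families of developmental transcription factors also held called genes. Of 19 Sox genes, 15 had enough counts and 5 were called (1 higher in the extracranial and 4 in the intracranial library), with a median log2 ratio of -0.85. The called share was 33.3%, beside 21.2% of forkhead members, 7.19% of all genes and 8.94% of protein-coding genes. Of 13 Tbx genes, 9 had enough counts and 2 (22.2%) were called, both higher in the extracranial library, with a median of 0.47. The difference between the families was not tested.

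Overlapping annotation bears on a few members, since the strand setting of the counting was not given. Foxq1 shares 66.1% of its exon bases with an opposite-strand gene, A530084C06Rik, that had 0 counts in both libraries, and Foxe1 shares 3.64% with the antisense gene Gm12446 (26 and 0 counts). Reads from these genes and their partners cannot be told apart if strand was ignored. Among members without a shared exon, 5 were called, 2 higher in the extracranial and 3 in the intracranial library. Foxd2os, a non-coding transcript named for the opposite strand of Foxd2, had 205 and 103 counts.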

How the data were processed

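Bulk RNA-seq of 2 murine tumors was analysed, 1 per location. The deposited values are raw counts per Ensembl gene. Per the labels and the study's methods, the authors made these counts from poly(A)-selected directional single-read libraries with FastQC 0.11.9, MultiQC 1.11, STAR 2.7.9a (GRCm39, Ensembl 104) and featureCounts. Strand setting and treatment of multimapping reads were not given in the sources used here. Symbols (52135 of 55416 rows, 94.08%), biotypes and exon lengths came from GENCODE release 21, which is older and on GRCm38. Rows without a symbol held 0.694% and 0.950% of counts and stayed in the library sizes.

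Counts were scaled by TMM factors (1.006 and 0.994; edgeR 4.0.16, R 4.3.3). A quasi-likelihood fit needs replicates and was not possible with 1 library a location. Ratios received exact conditional binomial 95% intervals (SciPy 1.17.1, Python 3.11.15). The code was run on simulated counts that held counting error only, without duplicate reads or variation between tumors. Medians covered genes with more than 3 counts in at least 1 library and set counts of 3 or fewer to 3. Alternatives were DESeq2 1.42.0 size factors, total counts, upper quartile scaling, other count minimums, thresholds, a prior count and other lengths.

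Members and lists were chosen with earlier results of these data known. Members with 10 or more counts were described with values. From each list the called genes, and otherwise the 4 genes farthest from equality, could be named. Genes named outside this rule (Bcl2l11, Sod2, Pdk4, Pik3ip1, Pmp22, Mcidas, Mki67, Top2a, Ccnb1, Nodal, and markers given because they were at or near 0) were chosen after their values were seen. Figures were drawn with matplotlib 3.10.9. A few genes and sequences are not reported here and are left out of the plots by gene, while they stay in the counts and medians.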

Additional observations from a re-analysis of the deposited data

How the results depend on the processing

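No paired analysis was possible because only 1 library stood for either tumor site, and so no library could be left out. Of 263 alternative values, 253 kept their direction and stayed within the limits set for each kind of value, 9 moved past them and 1 reversed, and all 99 alternative log2 ratios of the 33 members kept their direction and call. These 99 values came from other scalings only. Every log2 ratio shifted by 0.015 with DESeq2 size factors, by -0.017 with total counts and by 0.038 with upper quartile scaling. The shifts were smaller than the smallest member ratio (0.06, Foxn2), so no member could change direction. The 7 forkhead calls became 6 with 100 or more counts, 9 beyond 2-fold, 10 by the ratio alone and, as an alternative added after seeing the data, 5 without members that share an exon. The count of all genes called rose from 1581 to 3434 (1287 higher in the extracranial and 2147 in the intracranial library) beyond 2-fold and to 2542 (787 and 1755) by the ratio alone, which are looser rules. The FoxO regulator median reversed from -0.015 to 0.023 with upper quartile scaling, a change within the shift of that scaling, and the macrophage median became 1.64 from 1.60. With 100 or more counts, which leaves fewer genes, medians became -0.41 for cranial mesenchyme transcription factors, 1.66 for thymic epithelium, 0.22 for B cells, -2.62 for skeletal muscle, -1.54 for Schwann cells and -3.75 for thyroid. Under the same minimum, medians that stayed within the counting interval of their middle genes also shifted, to -5.60 for ionocyte genes, 0.073 for Nodal signalling, -6.30 for neutrophils and 2.85 for lens. The order by coding length from a protein table was not run, and the annotated coding length was used, chosen after seeing the data. It kept 7 and 9 of the 10 leading members, and CPM without length kept 8 and 8.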

Other observations

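Lists that no forkhead result was read against gave these values. Of 10 macrophage markers, 1 was called higher in the extracranial library and 0 in the other, with a median log2 ratio of 1.60. Of 10 neutrophil markers, 8 had enough counts, 7 were called higher in the intracranial library and 0 in the other, with a median of -4.17. Of 7 B cell markers, 1 was called in each direction, with a median of 2.11. Of 9 skeletal muscle markers, 7 had enough counts and 3 were called higher in the intracranial library, with a median of -3.13. Of 11 cartilage and bone markers, 10 had enough counts, 1 (Dmp1) was called higher in the extracranial and 3 in the intracranial library, with a median of 0.31. Of 9 forebrain markers, 4 had enough counts and 0 were called, with a median of -0.40. Of 9 neuron markers, 1 (Nefl) was called higher in the extracranial library, with a median of 0.43. Dppa3, whose locus carries the Cre, had 20 counts in the intracranial and 91 counts in the extracranial library.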
